A study of Mus musculus with 278 samples.

Results

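Basement membrane, matrix and integrin genes were examined as a module of 41 listed genes among the 25135 genes kept in the count files. The list was applied by symbol, and it held 8 laminin chains, 4 type IV collagen chains, 4 other collagens, 4 linker proteins or proteoglycans, 7 matricellular proteins or fibronectin, dystroglycan, 7 integrin alpha subunits and 6 integrin beta subunits. All 41 had reads, and all 41 passed the filter on low values (1 CPM, which is the count scaled to a total of 1000000 reads in kept genes, in 3 or more cells), which 15312 genes passed. Single cells of FVB/NJ mouse mammary glands were captured on the Fluidigm C1 chip, and each library held the cDNA of 1 cell. Adult, non-pregnant glands (10 weeks old and 4 mice per sort by the study's methods) gave 112 cells sorted as basal (CD24+ and CD29 high) and 43 sorted as luminal (CD24+ and CD29 low), with cells positive for Ter119, CD31 or CD45 removed. Pregnant glands (mid-pregnancy, 2 mice by the study's methods) gave 123 cells of the total epithelium, with no split by lineage. No animal carried a transgene or treatment in the labels. The mice of a group were pooled and the labels tie no cell to a mouse, so each group counted as 1 sample, no difference has a replicate check and no test was run.

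The basement membrane is a sheet of matrix under the epithelium of ducts and alveoli. Laminins and type IV collagen form its networks, nidogen, perlecan and agrin link or bind them, and integrins and dystroglycan are the receptors by which cells attach to it. In the mammary gland the basal, or myoepithelial, cells lie directly on this sheet and contract to expel milk, while most luminal cells face the lumen. Matricellular proteins such as periostin, SPARC and the thrombospondins are secreted into the matrix and modulate adhesion rather than build it. Integrin beta 1, the product of Itgb1, is CD29, the antigen by which the adult cells were sorted, so the difference of Itgb1 between the adult sorts was set by the gate and is given only as a description.

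Cells with 50000 or more reads in kept genes were retained, which left 85 adult basal cells (67170 to 1290736 reads, median 378479), 41 adult luminal cells (173150 to 1006261, median 637857) and 96 pregnancy cells (53966 to 790397, median 215202). Adult basal cells detected a median of 9 of 10 basal markers (such as Krt5, Krt14 and Acta2) and 2 of 10 luminal markers (such as Krt8, Krt18 and Elf3), and adult luminal cells 0 and 8. Pregnancy cells were put in classes by the share of the study's basal and luminal list genes that they detected, with the 10 members of the basal list left out. This gave 36 basal, 29 luminal, 29 mixed (past both thresholds) and 2 unassigned cells. The classes were cut from a score over other genes of the same cells, with 5 and 3 cells within 2 percentage points of the basal and luminal thresholds, so their differences are descriptions. Class sizes moved with the thresholds, to 49 basal and 18 luminal cells with thresholds at the 25th percentile of the adult sorts. Milk genes took 36.3% of the reads of the pregnancy luminal class, 1.60% of the pregnancy basal class and 1.25% of adult luminal cells.

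Some cells carried markers of other cell types. Cells with 3 or more markers of a fibroblast, endothelial, immune, pericyte or Schwann list are called marked cells. They numbered 1 of 85 adult basal and 7 of 41 adult luminal cells. In pregnancy they numbered 13 of 36 basal class, 8 of 29 mixed class and 2 of 29 luminal class cells. The fibroblast list of 6 genes summed to 48.3 CPM in adult basal cells, where Lum was at 0, to 1752 CPM in adult luminal cells, to 3231 CPM in the pregnancy basal class and to 11.4 CPM in the pregnancy luminal class, where Col1a1, Lum and Pdgfra were at 0. It summed to 2197 CPM in the pregnancy mixed class. Pregnancy cell 5 of the basal class detected 6 of 6 fibroblast markers and 0 of 10 basal markers. All 8 fibroblast-marked cells of the pregnancy basal class had title numbers up to 55, a split of the pregnancy cells that was drawn after earlier results were seen. Adult luminal cell 35 detected 9 of 10 basal markers beside 7 of 10 luminal ones. Many ratios are given with and without such cells, and the part of other cell types in the remaining values was not tested.

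The 41 genes together took 1.52% of all reads in adult basal cells, 0.272% in adult luminal cells and 0.754% in pregnancy cells. Within pregnancy the share was 1.71% in the basal class, 0.735% in the mixed class and 0.194% in the luminal class. Per adult basal cell the share ran from 0.170% to 5.22% with a median of 1.46%, and per adult luminal cell from 0.0286% to 1.84% with a median of 0.175%. The ranges overlapped, with the adult basal median below the highest luminal cell. Without the marked cells the shares were 1.535% in adult basal, 0.197% in adult luminal and 0.573% in pregnancy cells. The 5 genes with most reads in adult basal cells (Postn, Thbs1, Sparc, Itga6 and Itgb1) held 68.9% of the module's reads in adult basal cells and 32.6% in adult luminal cells.

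When every cell was thinned to 50000 reads, adult basal cells detected 7 to 29 of the 41 members (median 18; 22 unthinned) and adult luminal cells 2 to 23 (median 8; 11 unthinned). The pregnancy basal class detected 14 to 34 (median 21; 24 unthinned), the mixed class 13 to 33 (median 22; 26 unthinned) and the luminal class 4 to 19 (median 10; 14 unthinned). Cells of the mixed class detected about as many members as those of the basal class, at a smaller share of reads. They also detected more genes of all kinds when thinned (median 4275 against 3008.5), so the counts are not like for like. Of the 29 mixed cells, 8 carried markers of another cell type. Each of the 29 mixed cells had Postn reads, from 102 to 12574 CPM (median 890).

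**Figure D1:**
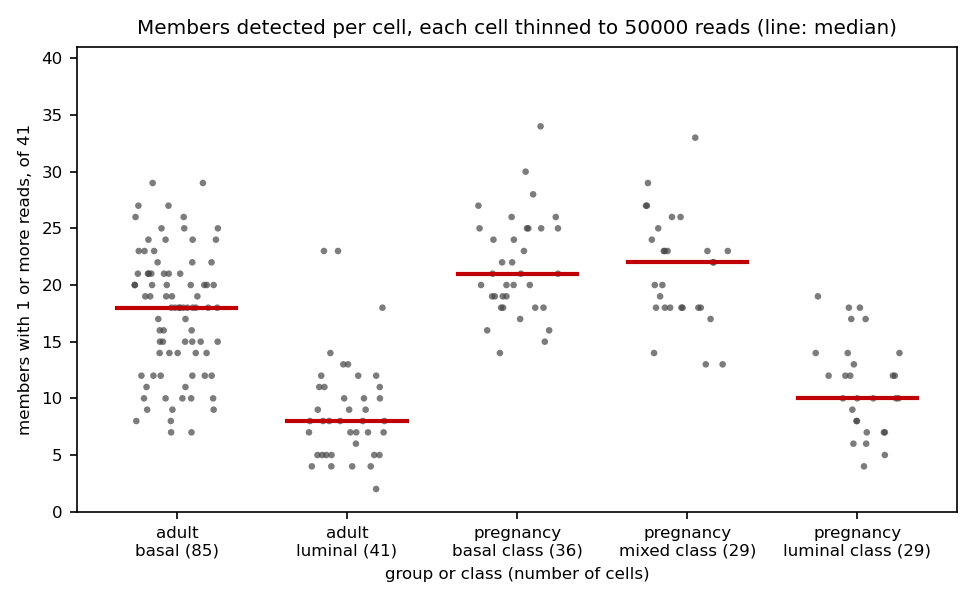
Number of the 41 members with 1 or more reads (vertical axis) in each cell after thinning to 50000 reads, by group or class, with 1 point per cell and a line at the median. Adult basal cells and the pregnancy basal and mixed classes have medians of 18, 21 and 22, and adult luminal cells and the pregnancy luminal class 8 and 10.

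In the adult gland, 22 of the 41 members were 4-fold or more higher in the summed counts of basal than of luminal cells, and 4 were 4-fold or more lower. Of 14355 genes with a ratio, 14.8% were 4-fold or more higher and 22.8% lower, and the median log2 ratio was 2.18 for the members and -0.32 for all genes. Without cells marked as another type the counts were 26 higher and 2 lower. In pregnancy, 29 members were 4-fold or more higher in the basal than in the luminal class and 0 were lower, where 28.3% of 13486 genes were higher and 10.5% lower. The median log2 ratio there was 3.51 for the members and 0.82 for all genes, and 24 members were higher and 2 lower without the marked cells. With the milk genes left out of the totals, the pregnancy median was 2.88. No member separated the cells completely in any comparison between these groups. The same count over all genes was not made, so this describes the members only. Intervals below are exact, at the 95% level, and cover counting error only, since reads amplified by PCR without molecular identifiers are not independent molecules.

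**Figure D2:**
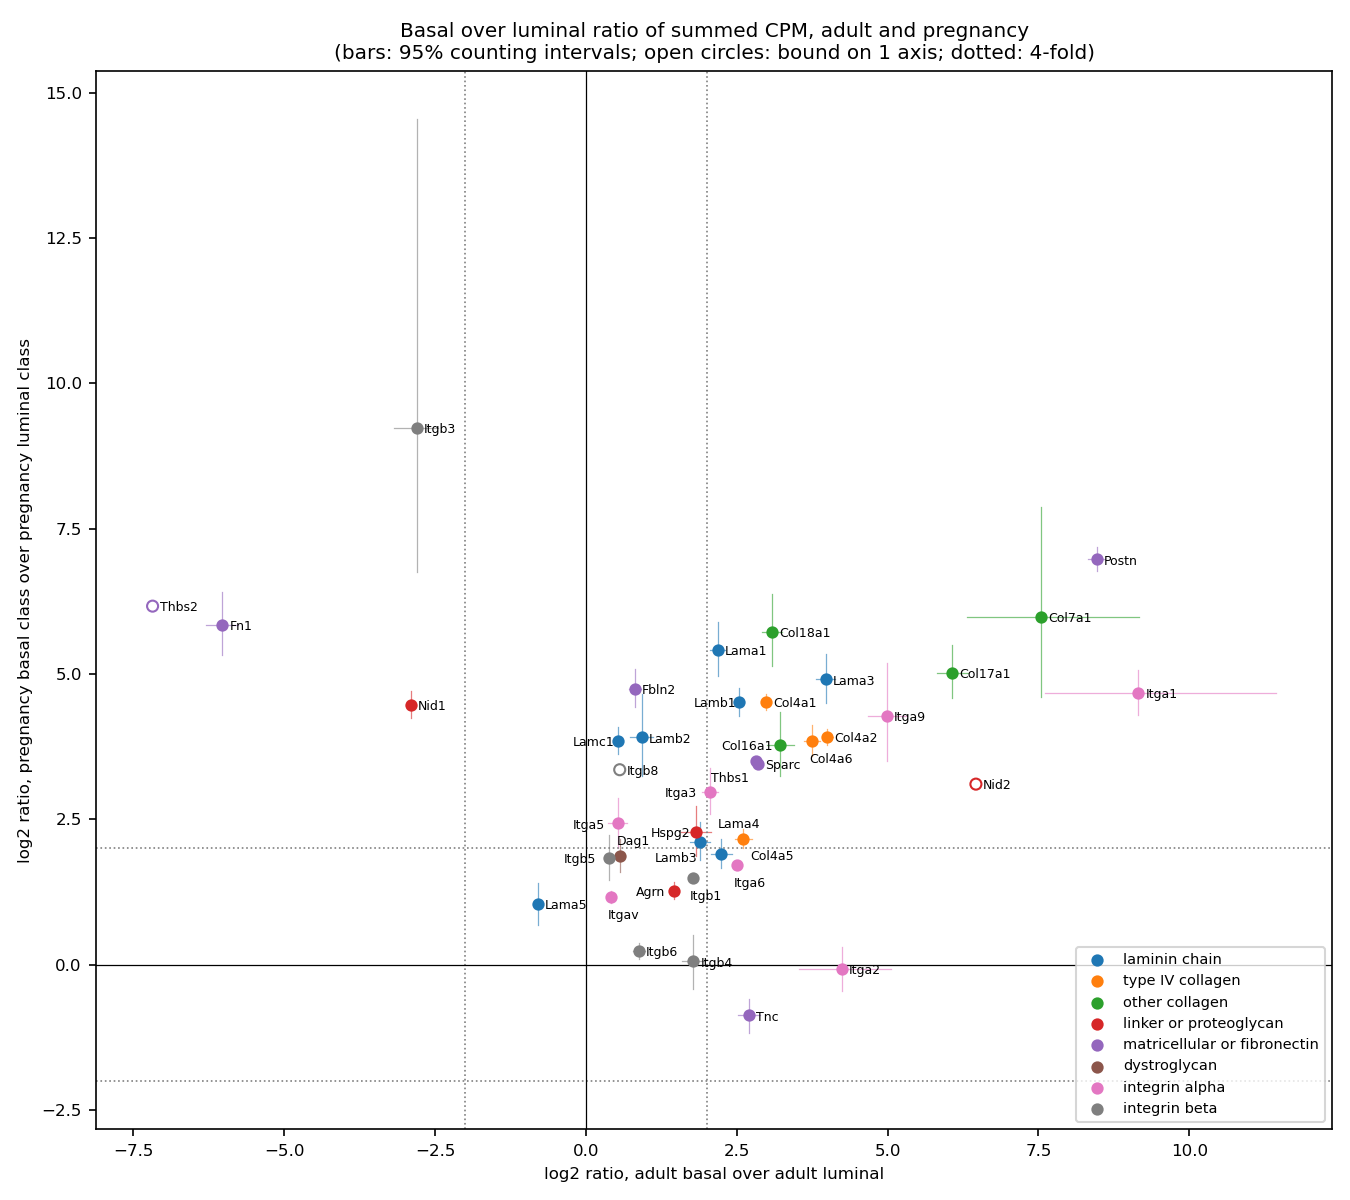
log2 ratio of summed CPM of each member, adult basal over adult luminal cells (horizontal axis) and pregnancy basal over pregnancy luminal class (vertical axis), coloured by role, with 95% counting intervals as bars and open circles where 1 of the ratios is a bound. Most members lie in the upper right, while Nid1, Fn1, Thbs2 and Itgb3 lie in the upper left, below -2 in the adult and above 2 in pregnancy.

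The 4 type IV collagen chains of the list were higher in basal cells, in the adult and in pregnancy. The remaining chains, Col4a3 and Col4a4, are not members and were near 0, at 0.028 and 0.952 CPM in adult basal and 1.33 and 1.05 CPM in adult luminal cells. The listed chains are encoded by gene pairs that lie head to head, Col4a1 (chr8:11198423-11312889) with Col4a2 (chr8:11312805-11449287) and Col4a5 (chrX:141475370-141689236) with Col4a6 (chrX:141165403-141474095). The RefSeq promoter windows of these pairs (build GRCm38.p6, 250 bases before to 50 after the start, read 5′ to 3′ on the gene's own strand) are shown because the chains of each pair assemble together and their levels are compared within cells below. Capitals mark the GC box GGGCGG and the CCAAT box, on either strand. The Col4a1 window is at chr8:11312777-11313076 on the minus strand, Col4a2 at chr8:11312555-11312854 on the plus strand, Col4a5 at chrX:141475169-141475468 on the plus strand and Col4a6 at chrX:141474027-141474326 on the minus strand. The starts used for the Col4a1, Col4a5 and Col4a6 windows lie inside the gene coordinates above. Only the Col4a2 window is set on the outer end of its gene.
Col4a1: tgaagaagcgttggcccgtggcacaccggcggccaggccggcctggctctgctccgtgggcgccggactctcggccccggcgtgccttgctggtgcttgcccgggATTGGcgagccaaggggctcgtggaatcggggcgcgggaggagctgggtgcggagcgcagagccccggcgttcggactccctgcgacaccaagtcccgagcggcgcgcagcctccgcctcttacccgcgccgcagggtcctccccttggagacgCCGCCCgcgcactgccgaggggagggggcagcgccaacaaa
Col4a2: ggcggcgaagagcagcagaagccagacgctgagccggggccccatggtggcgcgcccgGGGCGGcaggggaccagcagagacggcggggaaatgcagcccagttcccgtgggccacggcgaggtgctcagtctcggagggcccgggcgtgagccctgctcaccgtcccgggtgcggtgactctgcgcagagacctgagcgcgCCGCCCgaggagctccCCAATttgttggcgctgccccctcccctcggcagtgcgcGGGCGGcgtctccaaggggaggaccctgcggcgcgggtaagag
Col4a5: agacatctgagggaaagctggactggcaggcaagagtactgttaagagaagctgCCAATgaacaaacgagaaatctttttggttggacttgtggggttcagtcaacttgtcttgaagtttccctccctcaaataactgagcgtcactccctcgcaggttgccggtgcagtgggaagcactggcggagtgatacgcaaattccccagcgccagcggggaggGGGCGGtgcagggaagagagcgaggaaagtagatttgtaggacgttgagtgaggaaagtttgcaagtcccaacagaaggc
Col4a6: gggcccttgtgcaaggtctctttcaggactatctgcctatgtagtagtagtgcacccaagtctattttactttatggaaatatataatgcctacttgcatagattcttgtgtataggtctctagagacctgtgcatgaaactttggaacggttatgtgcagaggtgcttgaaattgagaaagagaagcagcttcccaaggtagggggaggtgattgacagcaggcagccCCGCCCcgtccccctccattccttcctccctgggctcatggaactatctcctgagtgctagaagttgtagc
The Col4a1 and Col4a2 windows were 74.0% and 73.7% G or C, share bases, and held 1 and 3 GC boxes and 1 CCAAT box each. The GC box of the Col4a1 window lies in the shared bases and is also 1 of the 3 counted for Col4a2. The Col4a5 window was 52.7% G or C with 1 GC box and 1 CCAAT box, and the Col4a6 window 48.3% with 1 GC box and 0 CCAAT boxes. Over 18458 genes with a window in the table, 48.7% held a GC box and 42.2% a CCAAT box. Of the 31 members in the table, 21 (67.7%) held a GC box and 14 (45.2%) a CCAAT box. The AP-1 motif TGANTCA was in 2 of the 31 (8.36% of all genes) and the TEAD motif GGAATG in 5 (15.5% of all genes). These are matches of letters and not measured sites.

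Col4a1 ran from 0 to 3450 CPM per adult basal cell (median 371) and from 0 to 878 per adult luminal cell (median 0). In pregnancy it ran from 35.7 to 6459 in the basal class (median 1211) and from 0 to 662 in the luminal class (median 6.58). Col4a2 gave 0 to 3323 (median 291) in adult basal, 0 to 928 (median 0) in adult luminal, 22.3 to 3558 (median 776) in the pregnancy basal class and 0 to 348 (median 0) in the pregnancy luminal class. Every pregnancy cell of the basal class thus had reads of both chains, and 30 of the 36 exceeded the highest luminal cell in Col4a2. In summed counts Col4a1 was 7.91-fold higher in adult basal cells (531 against 67.1 CPM, log2 2.98, 2.91 to 3.06) and Col4a2 16.0-fold (601 against 37.6 CPM, log2 4.00, 3.90 to 4.10). The pregnancy ratios were 22.9-fold for Col4a1 and 15.1-fold for Col4a2. In adult luminal cells 37.8% of the Col4a1 reads and 71.4% of the Col4a2 reads came from cell 35, and without the mixed luminal cells (27 and 35) the adult log2 ratios were 3.72 and 5.99, with 3.17 for Col4a5 and 4.70 for Col4a6 in place of 2.61 and 3.75.

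As CPM per 1000 bases of exon (RPKM), Col4a1 and Col4a2 were at 80.3 and 93.5 in adult basal cells and at 190 and 132 in the pregnancy basal class. The gene models overlap by 84 bases, and reads there cannot be told apart by strand in these libraries. Of 85 thinned adult basal cells 59 detected both, 15 detected Col4a1 alone, 6 detected Col4a2 alone and 5 detected neither. If detection were independent, 56.6 cells would hold both. Spearman's rho across those cells was 0.17, which is weak in sparse counts, and all cells share their library's depth between the genes. In adult luminal cells 4 of 41 detected both chains and 35 neither. The chains Col4a5 and Col4a6 were lower, at 18.2 and 40.4 RPKM in adult basal cells and 34.8 and 34.0 in the pregnancy basal class, and 33 of 85 adult basal cells detected both.

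**Figure D3:**
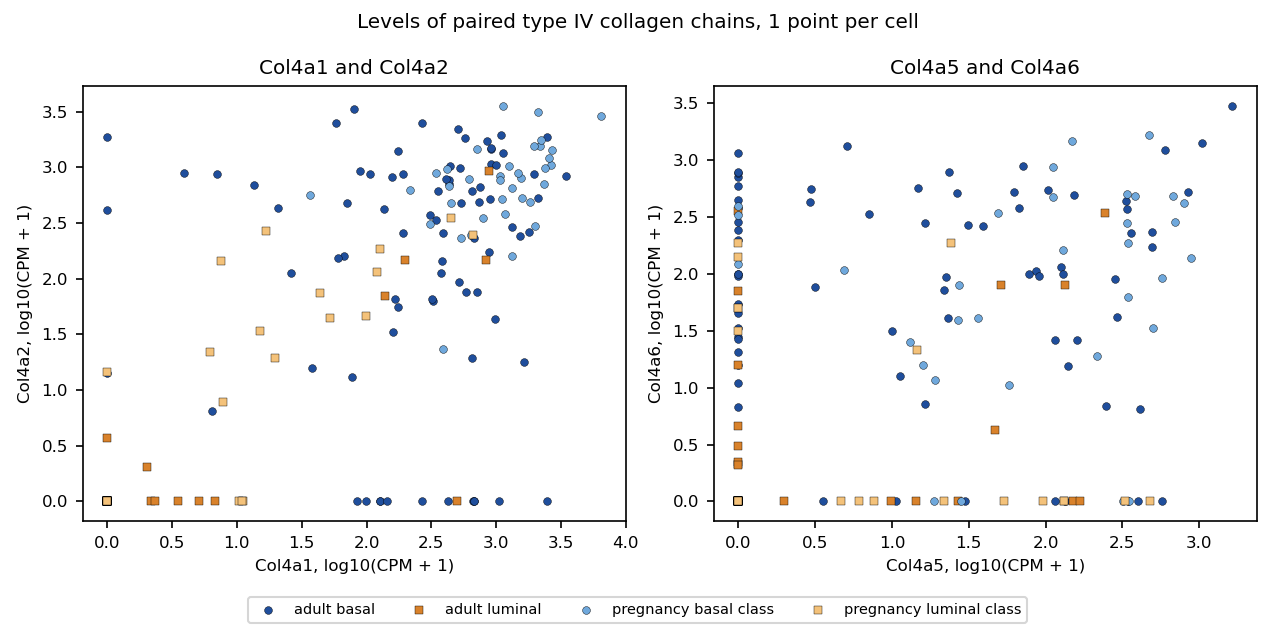
Level in each cell as log10(CPM + 1) of Col4a1 against Col4a2 (left) and Col4a5 against Col4a6 (right), with 1 point per cell and symbols by group. Basal cells of both stages fill the upper right of the left panel, while the right panel has many cells at 0 on 1 axis, where the other chain alone had reads.

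Of the other collagens, all 4 were higher in basal cells at both stages. Col17a1, the transmembrane collagen of hemidesmosomes, ran from 0 to 2574 CPM per adult basal cell (median 231) and from 0 to 122 per adult luminal cell (median 0). Of 85 adult basal cells 54 lay above the highest luminal cell, and 0 of 41 luminal cells lay above the basal median. Its summed level was 342 against 5.08 CPM in the adult (67.3-fold, log2 6.07, 5.82 to 6.34) and 167 against 5.13 CPM in pregnancy (32.5-fold). Col7a1, which forms the anchoring fibrils, rested on 5 reads in adult luminal cells (log2 7.54, 6.32 to 9.17). Col16a1, a fibril-associated collagen, and Col18a1, which carries the endostatin domain, were 9.33-fold and 8.48-fold higher in adult basal cells and 13.7-fold and 53.0-fold in the pregnancy basal class. Without marked cells, which held 76.2% of its adult luminal reads, the adult log2 ratio of Col18a1 was 4.90 in place of 3.08.

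Of the laminin chains 4 of 8 were 4-fold or more higher in adult basal cells and 6 of 8 in the pregnancy basal class. Lama3, the alpha chain of the hemidesmosome laminin, ran from 0 to 1659 CPM per adult basal cell (median 152) and from 0 to 372 per adult luminal cell (median 0). It was detected in 63 of 85 thinned adult basal cells (74.1%, 63.5 to 83.0) and in 2 of 41 adult luminal cells (4.88%, 0.596 to 16.5). The summed levels were 230 and 14.7 CPM in the adult (15.7-fold) and 179 and 5.96 CPM in pregnancy (30.0-fold). Cell 35 gave 73.4% of the adult luminal reads of Lama3, marked cells gave the other 26.6%, and without the mixed luminal cells the adult log2 ratio was 11.40 in place of 3.97, on nearly no luminal reads. Lamb3, its beta chain, was 3.70-fold and 4.35-fold higher in basal cells, and 38 of 85 adult basal cells detected both chains.

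Lamb1, the common beta chain, ran from 0 to 2159 CPM (median 113) in adult basal and from 0 to 937 (median 0) in adult luminal cells, where 48.6% of its reads came from marked cells. It was 5.78-fold higher in the adult (log2 2.53, 2.45 to 2.61) and 22.9-fold in pregnancy. Lama1, an alpha chain of epithelial basement membranes, was 4.54-fold higher in adult basal cells and 42.8-fold in the pregnancy basal class, and cell 35 gave 56.4% of its adult luminal reads (log2 3.30 in place of 2.18 without the mixed luminal cells). Without marked cells the adult log2 ratio of Lama1 was 1.92, under 4-fold. Lamc1, the common gamma chain, was only 1.44-fold higher in the adult (135 against 93.2 CPM) and 14.5-fold in pregnancy (307 against 21.2 CPM). Lama4, a chain best known from vessels and stroma, was 4.73-fold higher in adult basal cells, but 42.4% of its adult basal reads came from 1 cell, and 100% of its reads in the pregnancy basal class came from marked cells, without which its pregnancy log2 ratio went from 1.91 to a bound of -4.14.

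Lama5, the other main epithelial alpha chain, went the other way in the adult. It was detected in 29 of 41 thinned adult luminal cells (70.7%, 54.5 to 83.9) and in 32 of 85 adult basal cells (37.6%, 27.4 to 48.8). Its level ran from 0 to 864 CPM per luminal cell (median 49.3) and from 0 to 2246 per basal cell (median 0), and the groups overlapped widely. The summed level was 126 CPM in adult luminal and 72.2 CPM in adult basal cells (log2 -0.80, -0.87 to -0.72), 38 of 41 luminal cells lay above the basal median of 0, and the log2 ratio was -1.002 without marked cells. In pregnancy it was 13.9 CPM in the luminal and 28.7 CPM in the basal class. Lamb2, another beta chain, was at 23.0 and 12.2 CPM in the adult sorts (log2 0.92), or 2.27 on the log2 scale without marked cells, past 4-fold.

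Matricellular genes gave the highest levels of the module. Postn (periostin), a secreted protein that binds collagen and integrins, was at 1683 RPKM in adult basal cells, above Sparc at 592, Itga6 at 296, Thbs1 at 235 and Itgb1 at 221. Postn ran from 0 to 36979 CPM per adult basal cell (median 3436) and from 0 to 389 per adult luminal cell (median 0). Of 85 basal cells 75 lay above the highest luminal cell. In summed counts it was at 5544 CPM in adult basal and 15.7 CPM in adult luminal cells, a 353-fold difference (log2 8.46, 8.32 to 8.61). Cell 35 gave 71.5% of the luminal reads, and the log2 ratio was 10.39 without the mixed luminal cells. In pregnancy Postn was at 2925 CPM in the basal class and 23.2 CPM in the luminal class (126-fold, log2 6.98, 6.77 to 7.19).

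**Figure D4:**
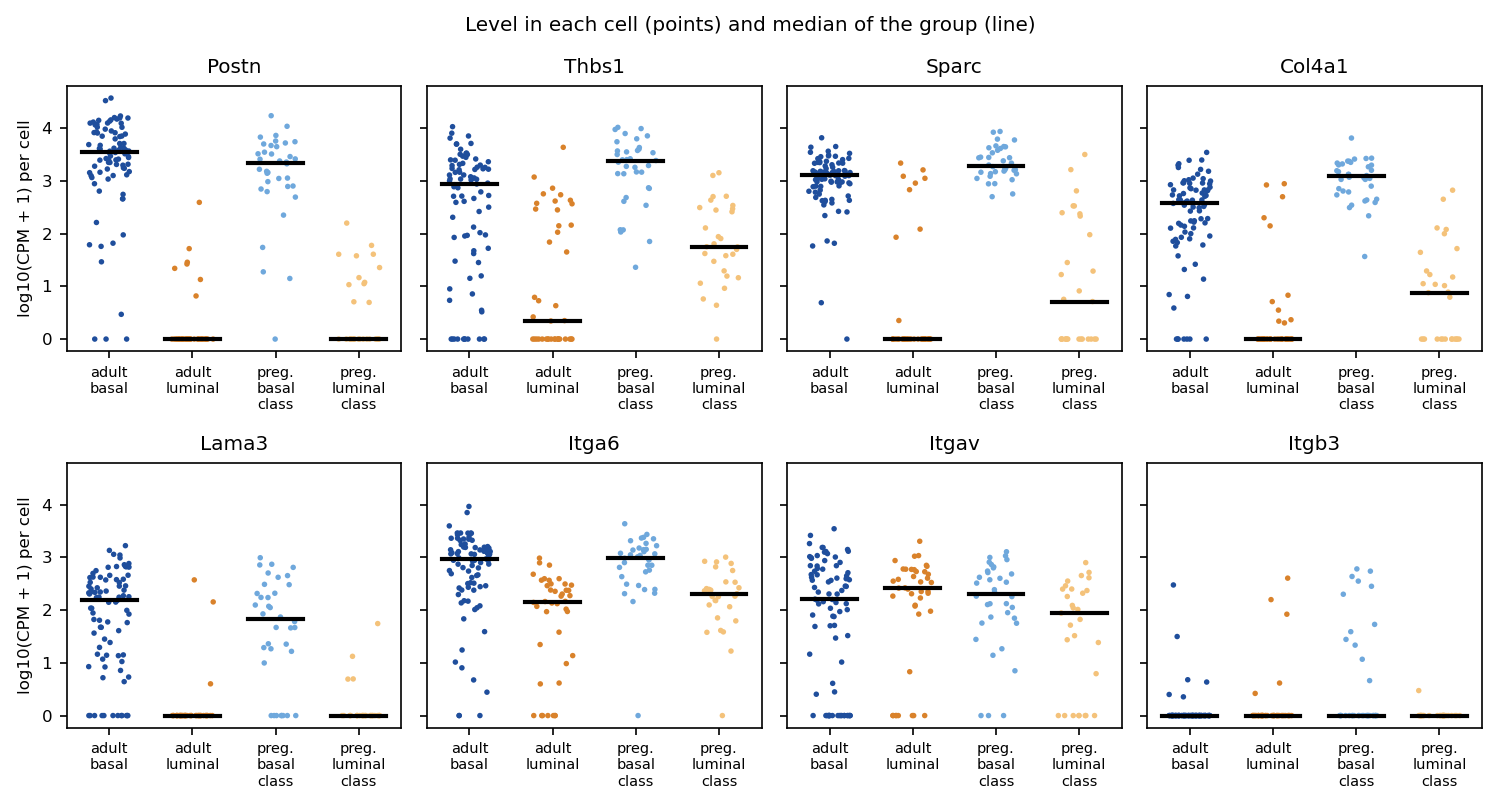
Level of 8 members in each cell as log10(CPM + 1), by group, with 1 point per cell and a line at the median. Postn, Col4a1 and Lama3 have medians of 0 or close to 0 in luminal cells of both stages, while Itgav has medians of 157, 259, 200 and 86.8 CPM in the 4 groups from left to right.

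Thbs1 (thrombospondin), which binds cells and matrix, ran from 0 to 10606 CPM in adult basal cells (median 868), from 0 to 4309 in adult luminal cells (median 1.24), from 21.9 to 10287 in the pregnancy basal class (median 2337) and from 0 to 1419 in the pregnancy luminal class (median 55.3). Every pregnancy basal class cell had reads, and 24 of 36 lay above the highest cell of the luminal class. It was 7.09-fold higher in adult basal than luminal cells (1361 against 192 CPM) and 11.4-fold in pregnancy (3255 against 286 CPM). Sparc, a collagen-binding glycoprotein, ran from 0 to 6528 CPM (median 1276) in adult basal cells and from 0 to 2162 (median 0) in adult luminal cells. It was 7.23-fold higher in the adult and 11.0-fold in pregnancy, and marked cells held 87.0% of the adult luminal reads. Without them the adult log2 ratio of Sparc was 5.54 in place of 2.85.

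Fbln2 (fibulin), a basement membrane glycoprotein, was 1.75-fold higher in adult basal cells and 26.9-fold in the pregnancy basal class, where marked cells held 75.5% of its reads. Without them its pregnancy log2 ratio was 8.73 in place of 4.75, since marked cells also held 97.6% of the luminal class reads. Tnc (tenascin), a matricellular protein, was ordered the other way in pregnancy than in the adult. It was at 69.2 CPM in adult basal and 10.6 CPM in adult luminal cells (6.51-fold), with 23.5% of adult basal cells detecting it, and 90.2% of the luminal reads in marked cells. In pregnancy it was at 25.2 CPM in the basal class and 46.1 CPM in the luminal class, where 10 of 29 cells detected it (34.5%, 17.9 to 54.3). Of the basal class reads 96.9% came from 1 marked cell, and the pregnancy log2 ratio was -5.40 without the top cell of each class.

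Fn1 (fibronectin), Nid1 (nidogen, the linker of laminin and type IV collagen) and Thbs2 were lower in adult basal cells in the summed counts, and these values rested on marked cells. Fn1 ran from 0 to 5021 CPM per adult luminal cell, 5 of 41 cells having reads, and from 0 to 191 per adult basal cell, with medians of 0. Fn1 was at 224 CPM in adult luminal cells and 3.44 CPM in adult basal cells (log2 -6.02, -6.29 to -5.77), and 100% of its luminal reads came from marked cells. Nid1 was at 275 CPM and 36.8 CPM (log2 -2.90), with 99.96% of the luminal reads in marked cells and 60.0% in cell 26, which detected 6 of 6 fibroblast markers and 0 of 10 basal markers. Without marked cells the adult log2 ratios were at least 4.57 for Fn1, which then had 0 luminal reads, and 7.99 for Nid1, the reverse of the values over all cells. Thbs2 had 0 reads in adult basal cells and 12.2 CPM in adult luminal cells, at least 145-fold lower in basal cells against a floor of 3 reads over the group. Marked cells held 96.4% of those luminal reads, and without them the bound was -2.66 on the log2 scale.

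The heparan sulfate proteoglycan Agrn (agrin) was detected in 51 of 85 adult basal cells (60.0%) and 21 of 41 adult luminal cells (51.2%). It ran from 0 to 3312 CPM per adult basal cell (median 135) and from 0 to 1004 per adult luminal cell (median 17.0), and was 2.74-fold higher in the adult and 2.42-fold in pregnancy. Hspg2 (perlecan) was 3.53-fold and 4.87-fold higher, and without marked cells the adult log2 ratio of 1.82 became 2.73, past 4-fold, and the pregnancy ratio of 2.28 became 1.89, under it. Nid2 rested on 127 reads of 1 adult basal cell and 1 read in adult luminal cells. Dag1 (dystroglycan), a laminin and agrin receptor, was detected in 43.5% of adult basal and 46.3% of adult luminal cells, at 99.2 and 67.0 CPM (1.48-fold).

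**Figure D5:**
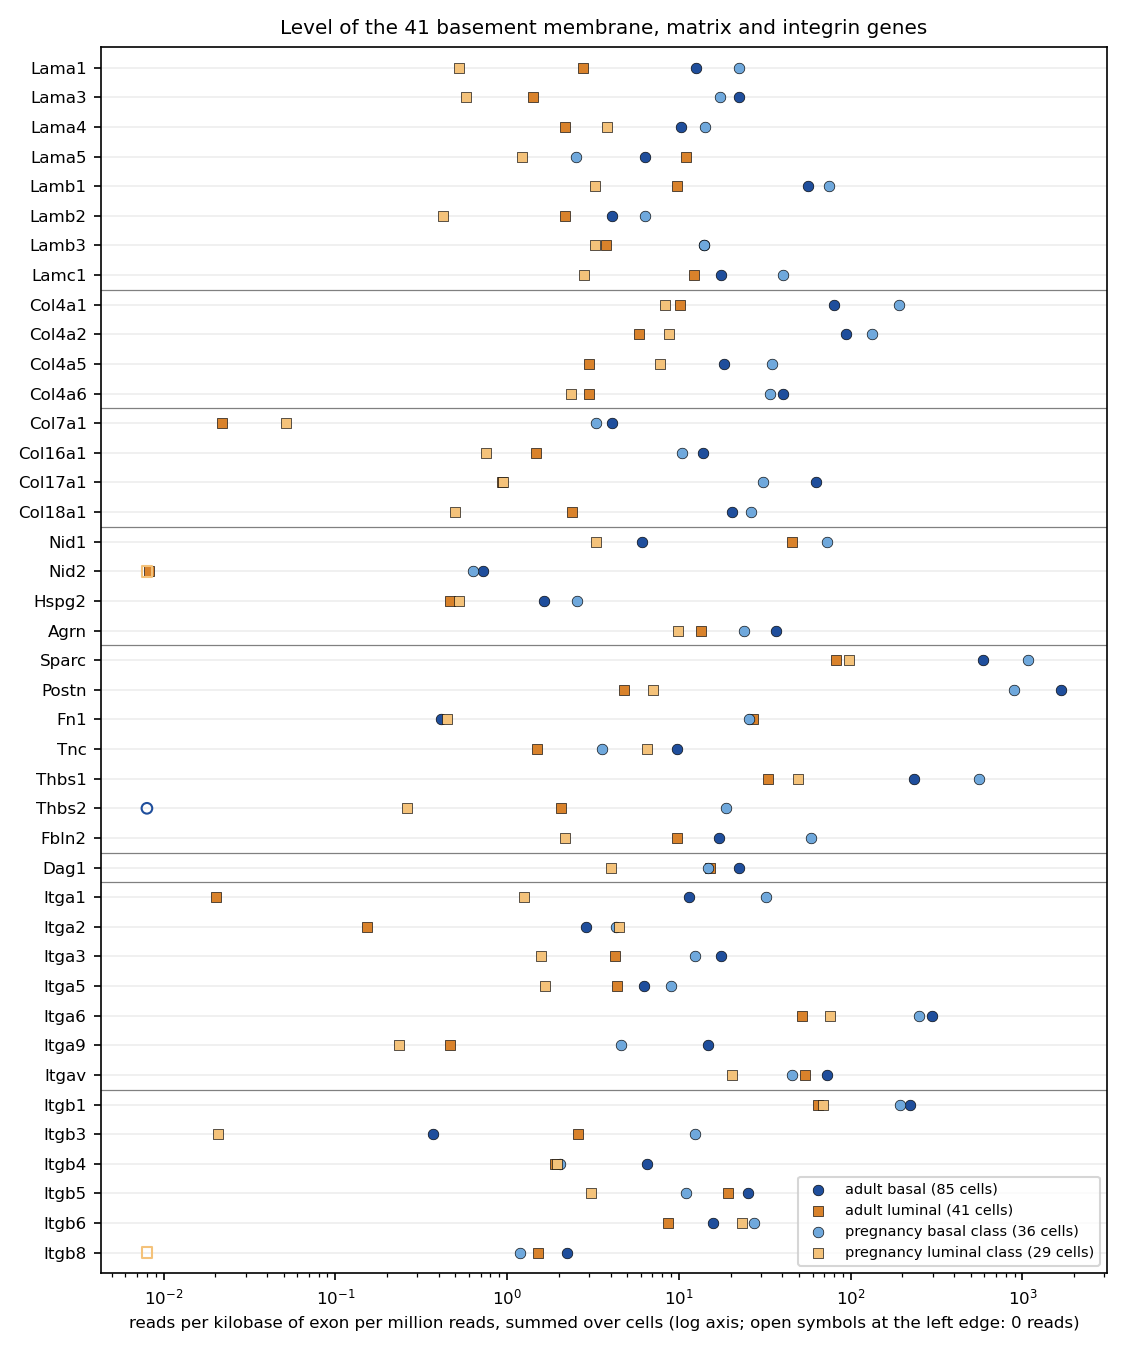
Level of each of the 41 members as RPKM (log axis), summed over the cells of each group, with circles for basal and squares for luminal cells. Postn, Sparc, Thbs1, Itga6 and Itgb1 are the highest members in adult basal cells, and the luminal squares lie to the left of the basal circles for most members.

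Of the integrin alpha subunits 5 of 7 were 4-fold or more higher in adult basal cells and 4 of 7 in the pregnancy basal class. Itga6, a laminin-binding subunit, ran from 0 to 9201 CPM per adult basal cell (median 934), from 0 to 963 per adult luminal cell (median 144), from 0 to 4320 in the pregnancy basal class (median 989) and from 0 to 1006 in the pregnancy luminal class (median 203). Of 85 adult basal cells 42 lay above the highest luminal cell. It was 5.65-fold higher in adult basal cells (1244 against 220 CPM, log2 2.50, 2.46 to 2.54) and 3.29-fold in pregnancy (1055 against 320 CPM). Itga6 was nonetheless found in 73.2% of adult luminal and 93.1% of pregnancy luminal class cells. Itga3, which also binds laminin, was 4.16-fold and 7.88-fold higher in basal cells.

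The collagen-binding subunit Itga1 had 2463 reads in adult basal cells and 3 in adult luminal cells (log2 9.16, 7.61 to 11.44), 47.2% of the basal reads came from 1 cell and the luminal reads from a marked cell. It was detected in 20 of 85 adult basal cells (23.5%) and 0 of 41 adult luminal cells. A rough limit for that 0 is 3 of 41 cells (7.32%), which is not an exact interval. In pregnancy Itga1 was detected in 19 of 36 basal class cells (52.8%, 35.5 to 69.6) and 4 of 29 luminal class cells (13.8%). Itga9, a receptor of tenascin and other ligands, was detected in 30.6% of adult basal cells and in 1 adult luminal cell, which was marked as another type and without which the adult log2 ratio of 4.99 became a bound of 9.48. Itga2, another collagen receptor, was detected in 7.06% of adult basal cells, 0 of 41 adult luminal cells and 24.1% of pregnancy luminal class cells. Its pregnancy log2 ratio was -0.07 (-0.45 to 0.31), an interval over 0 that covers counting error only. That ratio was -1.64 without marked cells, 0.82 for title numbers up to 55 and -1.82 above 55.

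Itgav, the subunit that pairs with several beta subunits to bind fibronectin and latent TGF-beta, was close between the lineages. It ran from 0 to 3470 CPM per adult basal cell (median 157) and from 0 to 2012 per adult luminal cell (median 259), and 28 of 41 luminal cells lay above the basal median. The summed levels were 511 and 383 CPM (1.33-fold, log2 0.42, 0.38 to 0.45), so the sum was higher in basal cells and the median higher in luminal cells. Itga5, the fibronectin receptor subunit, was 1.44-fold higher in adult basal cells.

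Of the 6 integrin beta subunits 0 were 4-fold or more higher in adult basal cells, and 1 (Itgb3) was 4-fold or more lower. Over all genes 14.8% were higher and 22.8% lower, so counts this small are near the shares of all genes. Itgb1, selected by the sort, ran from 0 to 7182 CPM per adult basal cell (median 634) and from 0 to 1456 per adult luminal cell (median 160), with summed levels of 927 and 271 CPM (3.42-fold). In pregnancy, where no CD29 gate split the cells, it ran from 35.9 to 2634 CPM in the basal class (median 819) and from 0 to 1460 in the luminal class (median 184), and the summed ratio was 2.83-fold (814 against 288 CPM, log2 1.50, 1.43 to 1.57). Itgb4, the hemidesmosome partner of Itga6, was at 6.54 RPKM in adult basal cells against 296 for Itga6. Only 26 of 85 adult basal cells detected both, where 26.0 would if detection were independent. Itgb5 and Itgb6, partners of Itgav, were 1.30-fold and 1.83-fold higher in adult basal cells. Itgb8 was detected in 3 adult basal and 2 adult luminal cells.

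Itgb3, the beta subunit of the vitronectin receptor, was low in the adult and was detected most often in the pregnancy basal class. It had reads in 6 of 85 adult basal, 5 of 41 adult luminal, 12 of 36 pregnancy basal class, 7 of 29 mixed class and 1 of 29 luminal class cells. Thinned, it was detected in 10 of 36 pregnancy basal class cells (27.8%, 14.2 to 45.2) and 1 of 85 adult basal cells (1.18%, 0.0298 to 6.38). The summed levels were 2.13 CPM in adult basal, 14.9 in adult luminal, 71.8 in the pregnancy basal class and 0.119 in the pregnancy luminal class, where the value rests on 1 read. Its medians were 0 in all of these groups, and 68.6% of the adult luminal reads and 26.0% of the pregnancy basal class reads came from 1 cell each, the latter from cell 5 with its fibroblast markers. The log2 ratio of the pregnancy basal class over adult basal cells was 5.08 (4.72 to 5.45), 5.00 without marked cells, 5.52 for title numbers up to 55 and 4.05 above 55. Above 55, 81.3% of the reads came from 1 cell.

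Between the stages, most members of basal cells were within 4-fold. In the pregnancy basal class over adult basal cells, 4 members were 4-fold or more higher (Nid1, Fn1, Thbs2 and Itgb3) and 0 lower, where 18.6% of 13889 genes were higher and 10.6% lower. The median log2 ratio of the members was 0.37 (0.08 over all genes), and it was -0.16 without marked cells and -0.10 for title numbers above 55. Without marked cells, Itgb3 alone was 4-fold or more higher, and Lama4, Tnc, Itga9 and Itgb5 were 4-fold or more lower, with log2 ratios of -6.03, -5.77, -2.70 and -3.27. The value of Lama4 is a bound, since marked cells held all of its pregnancy basal class reads, and that of Tnc rests on very few reads. Fn1 then gave a log2 ratio of -1.85 in place of 5.95, with its pregnancy basal class reads at or under the floor of 3 reads. Nid1 gave 1.01 in place of 3.57. All reads of Thbs2 in the pregnancy basal class came from marked cells.

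Within 4-fold, Col4a1 was 2.37-fold higher in the pregnancy basal class than in adult basal cells (1256 against 531 CPM, log2 1.24, 1.20 to 1.28) and Thbs1 2.39-fold (3255 against 1361 CPM). The log2 ratios were 1.20 and 1.47 without marked cells, and 0.81 and 1.399 for title numbers above 55. Itga1 was 2.78-fold, Lamc1 2.28-fold, Sparc 1.82-fold and Lama1 1.80-fold higher, with log2 ratios of 1.57, 0.39, 0.69 and 0.78 without marked cells, so that Lamc1 moved most of these. Postn was 1.90-fold lower (2925 against 5544 CPM, log2 -0.92, -0.95 to -0.90) and Col17a1 2.05-fold lower (167 against 342 CPM). Itga6 and Itgb1 were 1.18-fold and 1.14-fold lower, with log2 ratios of 0.15 and 0.11 in the other direction for title numbers above 55, and Itgb4 and Itga9 3.22-fold lower each. The cells of the stages overlapped in every member, with 55 of 85 adult basal cells above the pregnancy median of Postn and 9 of 85 above that of Col4a1. The stages came from different mice and captures, so stage and capture cannot be told apart.

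In the pregnancy luminal class over adult luminal cells, 3 members were 4-fold or more higher (Tnc, Itga1 and Itga2) and 12 lower, where 7.93% of 13754 genes were higher and 27.1% lower. Given 40 members with a ratio, both counts are near the shares of all genes. The 12 lower members were Lama1, Lama5, Lamb2, Lamc1, Col18a1, Nid1, Fn1, Thbs2, Fbln2, Itgb3, Itgb5 and Itgb8. The median log2 ratio of the members was -0.70 (-1.005 over all genes), and it was -0.06 with the milk genes out of the totals and 0.20 with TMM scaling, under which 6 members were higher and 6 lower. Without marked cells 6 were higher and 8 lower, and without the mixed adult luminal cells 8 were higher. Lama5 was 9.00-fold lower (13.9 against 126 CPM, log2 -3.17, -3.45 to -2.90) and Itgb5 6.28-fold lower. These single ratios are without TMM scaling, which raised each log2 ratio of this comparison by 0.90. Itga6 was 1.46-fold and Itgb1 1.06-fold higher, and Col4a2 1.50-fold, or 2.58 on the log2 scale without the mixed luminal cells. Of Nid1 and Fn1, marked cells held nearly all adult luminal reads.

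Among adult luminal cells, 10 were classed as luminal progenitor and 20 as mature luminal by their marker lists. Of the members, 6 were 4-fold or more higher and 11 lower in the progenitor class, where 13.4% of 12316 genes were higher and 30.0% lower, shares near those of all genes given 38 members with a ratio. Marked cells were 2 of the 10 and 2 of the 20, and without them 4 members were higher and 16 lower. The higher members over all cells were Lama4, Hspg2, Tnc, Itga2, Itgb8 and Thbs1. Thbs1 was at 489 CPM in the progenitor and 116 CPM in the mature class (4.23-fold, log2 2.08, 1.98 to 2.17), and 1.89 on the log2 scale without the top cell of each class. Itgb1 was at 86.2 and 367 CPM (log2 -2.09, -2.25 to -1.94), Lama5 at 29.8 and 146 CPM and Agrn at 29.6 and 144 CPM. Tnc had 239 reads in the progenitor class, 99.6% of them in marked cells, and 0 in the mature class. Itga6 was at 241 and 231 CPM, and its log2 ratio was 0.06 over all cells and -1.35 without marked cells. The 4 type IV collagen chains were within 4-fold over all cells, but Col4a1 and Col4a2 gave log2 ratios of -7.06 and -5.55 without marked cells. Cell 35, an adult luminal cell with basal markers, was not a marked cell. It gave a large part of the adult luminal reads of both chains. Neither ratio was computed without cell 35 and the marked cells together.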

How the data were processed

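The authors deposited, for each cell, raw counts of read pairs per gene, called reads here. Per the labels and the submitters' processing notes the reads were aligned with Subread 1.4.6 to mm10 and counted with featureCounts. The deposited series-wide table repeated these counts, so only the files of single cells were read, and 0 columns of per-sample values were left out. Of 27179 gene identifiers, 1904 without a symbol (1.20% of reads), 15 mitochondrial (9.54%) and 125 ribosomal genes (1.72%) were removed. Counts of reads include PCR copies, since the libraries had no molecular identifiers. Of 278 cells, 222 with 50000 or more reads were retained (85 adult basal, 41 adult luminal, 96 pregnancy), no 2 cells held identical counts, and doublets were not called.

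Counts were summed per group and divided by the summed reads (CPM) and exon length (RPKM). Ratios have exact conditional intervals and shares exact Clopper-Pearson intervals at the 95% level, and a value of 0 has a floor of 3 reads over the group. A share of 0 is given with a rough limit of 3 cells of the group instead of an exact interval. The call is 4-fold or more, and no p-value was computed because each group counted as 1 sample. Cells were thinned to 50000 reads for detection. Class thresholds were the 10th percentile of the adult sorts (17.6% of 187 basal and 16.9% of 189 luminal list genes). Luminal progenitor and mature luminal classes needed a lead of 3 markers. Members with 50 CPM or more in any labelled group are given with values, the others by counts or where their role group needs them, and at most 3 genes of each pathway list by level. One gene that this rule would name is not reported here. The members and lists were chosen with earlier results of these data known. The ratio and interval code was tested on simulated counts. Python 3.11.15, numpy 2.4.6, pandas 2.3.3, scipy 1.17.1, matplotlib 3.10.9, R 4.3.3 and edgeR 4.0.16 (TMM factors only) were used. Alternatives covered scaling, milk genes, cell weights, cell minimums, class thresholds, title numbers and the cells left out. Leaving out the mixed adult luminal cells was chosen after the data were seen.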

Additional observations from a re-analysis of the deposited data

Results flagged for a closer look

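For 5 members the ratio of basal over luminal cells had opposite signs in the adult and in pregnancy with both counting intervals apart from 0, and the difference between the stages was not tested, since each group counted as 1 sample. Lama5 gave a log2 ratio of -0.80 in the adult and 1.04 in pregnancy. Nid1 gave -2.90 and 4.47, and Fn1 gave -6.02 and 5.85. For both genes marked cells held nearly all of the adult luminal reads and most of the pregnancy basal class reads. Tnc gave 2.70 and -0.87, with 96.9% of the pregnancy basal class reads in 1 marked cell. Itgb3 gave -2.80 and 9.24, the latter against 1 read in the pregnancy luminal class. Of the other members, Thbs2 (a bound of -7.18 in the adult, 6.17 in pregnancy) and Itga2 (4.24 and -0.07, with an interval over 0) also had opposite signs. The adult cells were split by a CD29 gate and the pregnancy cells by a class, so the kind of split and the stage cannot be told apart.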

How the results depend on the processing

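No paired analysis was possible because the labels number cells within a group and pair none of them across groups. TMM scaling moved the median of all genes by 0.30 (adult basal over luminal), -0.74 (pregnancy basal over luminal class), -0.11 (basal, pregnancy over adult), 0.90 (luminal, pregnancy over adult) and 0.09 (progenitor over mature class) on the log2 scale. Of 196 list values under alternatives, 136 moved little, 55 moved further and 5 changed sign. The cause of a change was not tested unless the setting itself removes the cells.

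In the adult the members' median log2 ratio of 2.18 became 2.48 with TMM, 2.49 with median of ratios, 2.42 with equal cell weights, 2.68 without the top cell of each member, 2.61 without marked cells and 2.51 without the mixed luminal cells, and the 4 lower members became 2 without marked cells. In pregnancy the median of 3.51 became 2.77 with TMM, 2.78 with median of ratios, 2.88 without milk genes, 3.06 with the study's cell minimums, 3.18 without marked cells, 2.65 for title numbers up to 55, 2.89 above 55 and 2.12 with thresholds at the 25th percentile. The study's minimums left out no adult basal or pregnancy cell and kept 39 of 41 adult luminal cells. That moved the luminal threshold, so the pregnancy classes held 47 basal and 23 luminal cells in place of 36 and 29. The 0 lower members became 1 without top cells, 2 without marked cells and 2 above 55.

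Between basal cells of the stages the median of 0.37 became 0.042 with the study's minimums, where the pregnancy basal class held 47 cells by the moved threshold. It became -0.16 without marked cells, 0.54 up to 55, -0.10 above 55 and -0.32 at the 25th percentile. The 4 higher members became 1 without marked cells and 1 above 55, and the 0 lower became 3 without top cells, 4 without marked cells, 1 up to 55 and 5 above 55. Between luminal cells of the stages the median of -0.70 became 0.20 with TMM, 0.25 with median of ratios, -0.064 without milk genes and -0.071 without the mixed cells. The 3 higher became 6 with TMM, 6 with median of ratios, 5 without milk genes, 6 without marked cells and 8 without the mixed cells, and the 12 lower became 6, 6, 7 without milk genes and 7 at the 25th percentile. For progenitor over mature cells the median of -0.63 became -1.12 with equal weights, -1.90 without top cells, -1.88 without marked cells and -0.11 with a marker lead of 1, the 6 higher became 3 without top cells, and the 11 lower became 7 at 10 CPM or more and 7 with a lead of 1.

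The share of reads in members became 1.54% with equal weights and 1.535% without marked cells in adult basal cells. In adult luminal cells it became 0.275% without milk genes, 0.281% with equal weights, 0.275% with the study's minimums and 0.197% without marked cells. In pregnancy cells it became 0.976% without milk genes, 0.984% with equal weights, 0.573% without marked cells, 1.07% up to 55 and 0.560% above 55. Among single members that were 4-fold or more apart over all cells, those that changed sign were Nid1 (7.99) and Fn1 (4.57) in the adult without marked cells, Fn1 in pregnancy above 55 (-2.25), Fn1 between basal cells of the stages without marked cells (-1.85) and above 55 (-1.88), Nid1 (6.42) and Thbs2 (0.72) between luminal cells of the stages without marked cells, and Lamb2 (1.21), Col18a1 (0.096) and Itgb5 (0.15) between progenitor and mature cells with a lead of 1. The Fn1 value of -1.85 rests on pregnancy basal class reads at or under the floor of 3 reads. Members within 4-fold are not in that list, and some of them changed sign too, such as Lama4 and Itgb5 in pregnancy without marked cells (-4.14, a bound, and -0.28). Nid2 and Itgb8 had 0 reads in the pregnancy luminal class and Itgb3 had 1, so their ratios there are bounds or wide.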

Other observations

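Genes that act beside the module were read from lists chosen with earlier results known. Their counts and levels are over all cells, marked cells included, and were not recomputed without marked cells. Of 22 genes of the integrin adhesion complex, 5 were 4-fold or more higher and 1 lower in adult basal than luminal cells, with a median log2 ratio of 1.09 (-0.32 over all genes). Over all genes 14.8% were higher and 22.8% lower in the adult, and 28.3% higher and 10.5% lower in the pregnancy basal over luminal class, and several of the list counts lie near these shares. Actn1 (alpha-actinin), which crosslinks actin at adhesions, was at 1812 CPM in adult basal and 113 CPM in adult luminal cells. Dst (dystonin) was at 1790 and 527 CPM and Vcl (vinculin) at 1016 and 412 CPM. Of 16 other basement membrane genes, 6 were higher and 3 lower in the adult and 11 higher and 0 lower in pregnancy, and the 3 lower in the adult are near the share of all genes. Hmcn1 (hemicentin) was at 170 CPM in adult basal and 0.604 CPM in adult luminal cells, and Tinagl1 at 55.1 and 35.2 CPM.

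Of 16 collagen processing genes, 5 were higher and 5 lower in the adult, while 10 were higher and 0 lower in the pregnancy basal class. Marked cells were 13 of the 36 cells of that class, and their part in these counts was not tested. In the adult, P4hb, a prolyl hydroxylase subunit, was at 111 CPM in basal and 204 CPM in luminal cells. Tgm2, a matrix crosslinking transglutaminase, was at 41.9 and 196 CPM. In the pregnancy basal and luminal classes P4hb was at 145 and 75.0 CPM and Tgm2 at 34.5 and 36.0 CPM. P4ha1, the other prolyl hydroxylase subunit named, was at 139 CPM in adult basal and 28.2 CPM in adult luminal cells. Of 14 matrix proteases and inhibitors, 4 were higher and 3 lower in the adult. Adamts1, a secreted protease, was at 1559 and 131 CPM, and Timp3, a matrix-bound inhibitor, at 950 and 236 CPM, with Timp2 at 213 and 162 CPM. The 3 lower of 14 are near the share of all genes. Of 14 other matrix receptors, 1 was higher and 2 lower in the adult, with Sdc4 (syndecan) at 9367 and 7191 CPM and Cd44, the hyaluronan receptor, at 648 and 223 CPM, and Sdc2 at 138 and 156 CPM.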
